A study of Mus musculus with 18 samples.

Results

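Transcript levels of 10 subunits of the SWI/SNF chromatin remodeling complexes were followed in mouse kidney cortex, 10 of the 24062 genes in the deposited table. They are the ATPases Smarca2 and Smarca4, the shared subunits Smarcb1, Smarcc1, Smarcc2, Smarcd1 and Smarcd3, the ARID subunits Arid1a and Arid1b, and Pbrm1. The subunits were taken by gene name, and Smarca2 was chosen by its RPKM difference between genotypes under vehicle. Its values in the vehicle libraries are therefore a description with no test, as are the vehicle genotype differences of all 10 subunits taken singly. Ratios between pairs of the other subunits were compared between genotypes under vehicle too, among the ratio tests below, and none passed. The other 9 were not picked for a value of their own, but the set was drawn up with earlier results of these data known.

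The study asked how the kidney, once proximal tubule cells lack the transcription factor Klf15, responds to aristolochic acid I (AAI), a plant nephrotoxin taken up by proximal tubule cells. RNA-seq was run on kidney cortex of C57Bl/6 mice, with 18 libraries in 6 groups of 3. Klf15PTKO mice (PTKO) and floxed Klf15fl/fl mice (fl/fl) received DMSO as vehicle, AAI for 2 weeks (AA 2wk), or AAI for 2 weeks and then 2 weeks of remodeling (AA 4wk). All animals carry floxed Klf15, while neither the Cre line nor the exons removed could be read from the labels. No group with Cre and intact Klf15 is named, so an effect of the deletion and an effect of Cre cannot be told apart. The DMSO libraries have no stated week and serve both courses, and nothing says that the 3 libraries of a group came from separate mice, so each p-value covers only how these libraries vary.

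SWI/SNF complexes use the energy of ATP to slide or evict nucleosomes, which opens or closes promoters and enhancers. Each complex carries a single ATPase, either BRM, encoded by Smarca2, or BRG1, encoded by Smarca4. BAF complexes are marked by ARID1A or ARID1B and PBAF complexes by PBRM1, the product of a gene often mutated in clear cell kidney cancer, a tumour thought to arise from the proximal tubule. Klf15 encodes a zinc finger protein of the Krüppel-like family, whose members bind GC-rich and CACC-box DNA.

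Smarca2 lies on the plus strand of chromosome 19, bases 26605050 to 26778322, and Smarca4 on the plus strand of chromosome 9, bases 21616169 to 21704230 (mm10, GENCODE). A stretch upstream of each start is shown because these ATPases replace each other and lay on opposite sides of DMSO after AAI, and because the deleted gene encodes a DNA-binding protein of a GC-box family. Both windows run from 250 to 111 bases before the RefSeq start and hold no annotated exon (GRCm38.p6), at chr19:26604910-26605049 on the plus strand for Smarca2 and chr9:21615919-21616058 on the plus strand for Smarca4. Capitals mark the GC box GGGCGG or its reverse complement CCGCCC.
Smarca2: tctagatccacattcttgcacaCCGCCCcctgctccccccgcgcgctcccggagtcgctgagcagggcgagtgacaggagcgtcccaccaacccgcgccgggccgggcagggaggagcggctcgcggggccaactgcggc
Smarca4: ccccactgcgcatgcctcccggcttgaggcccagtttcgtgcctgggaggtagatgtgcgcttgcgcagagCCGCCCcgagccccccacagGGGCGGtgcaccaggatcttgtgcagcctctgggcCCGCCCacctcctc
The bases nearer the start were not searched. The Smarca2 window holds 1 GC box and the Smarca4 window holds 3. Neither holds the CACC box, CACCC or its reverse complement GGGTG. All 10 genes had a RefSeq promoter entry, and 5 of the 10 hold a GC box and 2 hold a CACC box in such a window. Among 32851 promoter windows of the same length, 15.3% hold a GC box and 33.2% hold a CACC box, counted on both strands.

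Values are RPKM, reads divided by the gene's length and the library's size, so levels of different genes are compared per length. The steps between deposited values allowed whole reads to be recovered, 10980566 to 21922482 per library, with 1665 to 6869 reads behind Smarca2 and 70 to 362 behind Smarcd3, the least covered subunit. In PTKO DMSO libraries Klf15 itself had 28.5, 31.9 and 32.6 RPKM, against 53.0, 61.3 and 65.5 RPKM in fl/fl DMSO libraries, where all 3 values were higher. The library numbered 3 stood apart in both AA 2wk groups. Its summed level of 11 proximal tubule markers was 4785 RPKM in PTKO and 4321 RPKM in fl/fl, against 1880 to 2181 RPKM in the other AA 2wk libraries and 6716 to 7942 RPKM under DMSO. No marker of that list was at 0 in all libraries of any group.

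Smarca2 transcripts were lower in PTKO than in fl/fl cortex under DMSO and lay between 21.4 and 26.3 RPKM in every AAI library of both genotypes. In PTKO DMSO libraries Smarca2 had 40.5, 48.6 and 38.4 RPKM, against 61.5, 64.8 and 67.4 RPKM in fl/fl DMSO libraries. All PTKO values lay below all fl/fl values, with means of 42.5 ± 5.39 RPKM in PTKO and 64.6 ± 2.96 RPKM in fl/fl (SD, n = 3 each) and a difference of -0.60 ± 0.09 (SE) on the scale of log2(RPKM + 1). Under DMSO, 0.0367% of the 13624 tested genes were called between genotypes, at a limma p adjusted over all tested genes under 0.05, which is the choice that put Smarca2 on the list. At the edge of that choice stood Smarca2, Fam102a, Tmem86a and Gpc3 with an adjusted p of 0.0399, and just outside it Klhdc8a and Gpt with 0.0591.

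After AAI the Smarca2 levels of both genotypes overlapped. In PTKO AA 2wk libraries Smarca2 had 22.1, 21.4 and 26.3 RPKM, against 23.2, 21.8 and 24.6 RPKM in fl/fl AA 2wk libraries. In PTKO AA 4wk libraries it had 23.8, 25.5 and 24.9 RPKM, against 22.9, 25.2 and 23.6 RPKM in fl/fl AA 4wk libraries. All 12 AAI libraries lay below each of the 6 DMSO libraries. The levels of the AAI libraries did not enter the difference that chose Smarca2, so the genotype difference after AAI was tested. Their spread did enter the shared estimate of spread behind that choice, so the intervals given here are not independent of it. The genotype difference did not pass in either course. It was 0.00 ± 0.09 at AA 2wk (95% interval -0.20 to 0.20, limma adjusted p = 0.9996). At AA 4wk it was 0.05 ± 0.09 (interval -0.15 to 0.25, limma adjusted p = 0.916). The AA 2wk difference was -0.04 without both AA 2wk libraries numbered 3.

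By mean level, the groups ran from fl/fl DMSO and PTKO DMSO to PTKO AA 4wk (24.7 ± 0.861 RPKM), fl/fl AA 4wk (23.9 ± 1.22 RPKM), PTKO AA 2wk (23.3 ± 2.66 RPKM) and fl/fl AA 2wk (23.2 ± 1.44 RPKM), and the last 4 did not differ beyond their spread. Relative to DMSO, the log2 difference of Smarca2 at AA 2wk was -0.84 in PTKO and -1.44 in fl/fl, and after AA 4wk it was -0.75 in PTKO and -1.40 in fl/fl. These 4 values share the DMSO libraries that chose the gene and carry no test. Without both libraries numbered 3, the AA 2wk values were -0.93 in PTKO and -1.48 in fl/fl. In PTKO, 5.66% of tested genes had a lower value than Smarca2 at AA 2wk and 8.6% did so in the later course, and in fl/fl the shares were 1.67% and 2.73%. Between the courses Smarca2 differed by 0.09 in PTKO (limma adjusted p = 0.56) and by 0.04 in fl/fl (limma adjusted p = 0.872), AA 4wk over AA 2wk. The genotype difference in that step was 0.05 ± 0.13 (limma adjusted p = 0.955).

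**Figure D1:**
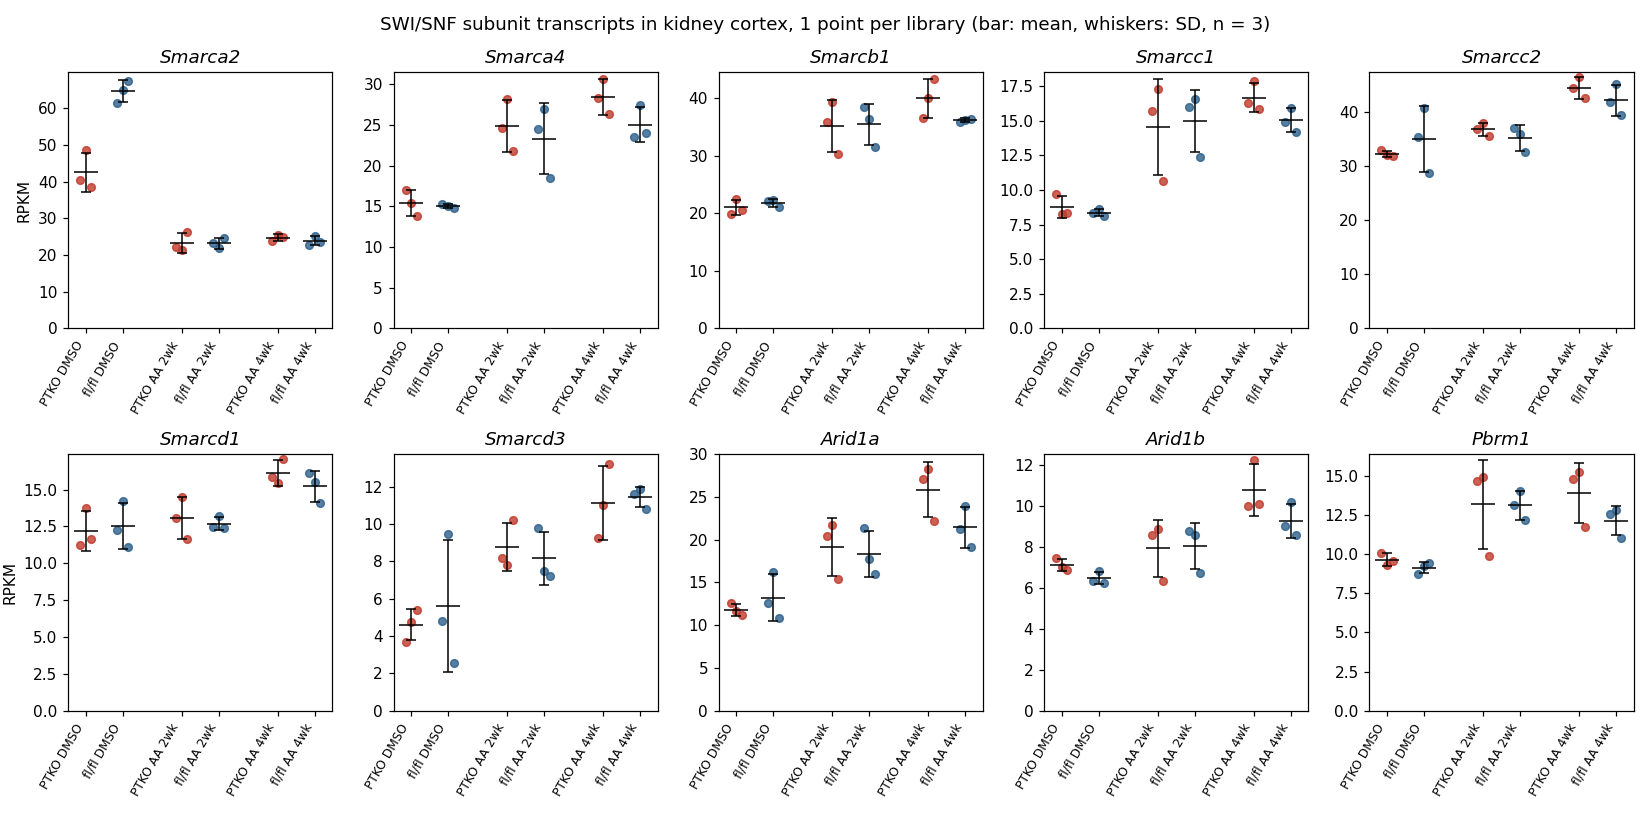
RPKM (y axis, linear, from 0) of the 10 SWI/SNF subunits in each library, by group. Points are libraries, bars are means and whiskers are SD of 3 libraries. Smarca2 is the subunit whose 12 AAI libraries, 21.4 to 26.3 RPKM, all lie below its 6 DMSO libraries.

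The cortex was sequenced as bulk tissue, so fewer cells of a type and less RNA per cell cannot be told apart in any of these values. Proximal tubule markers were lower in the AAI libraries than under DMSO, as Smarca2 was. Their sum was 1880 to 4785 RPKM in PTKO AA 2wk, 2066 to 4321 RPKM in fl/fl AA 2wk, 1009 to 1751 RPKM in PTKO AA 4wk and 2376 to 2775 RPKM in fl/fl AA 4wk libraries. At AA 2wk, 8 of the 11 markers fell in each genotype (limma, adjusted over all tested genes), while 5 fell in PTKO without its AA 2wk library 1 or without its library 2. At AA 4wk 11 fell in PTKO and 8 fell in fl/fl. Of all tested genes, 14.3% fell in PTKO and 12.2% in fl/fl at AA 2wk, and 17.3% and 14.3% did so at AA 4wk. In both AA 2wk libraries numbered 3, whose marker sums lay between those of DMSO and the other AAI libraries, Smarca2 had 26.3 RPKM in PTKO and 24.6 RPKM in fl/fl, against 21.4 to 23.2 RPKM in the other AA 2wk libraries. Among all AAI libraries the order differed. PTKO AA 4wk library 2 had the lowest marker sum, 1009 RPKM, and Smarca2 at 25.5 RPKM, above the 24.6 RPKM of fl/fl AA 2wk library 3. Under DMSO the marker sums of the genotypes overlapped, 6716 to 7770 RPKM in PTKO and 6804 to 7942 RPKM in fl/fl, while Smarca2 did not overlap. Smarca2 was chosen by that same DMSO difference, so its contrast with the marker sums is a description with no test.

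**Figure D2:**
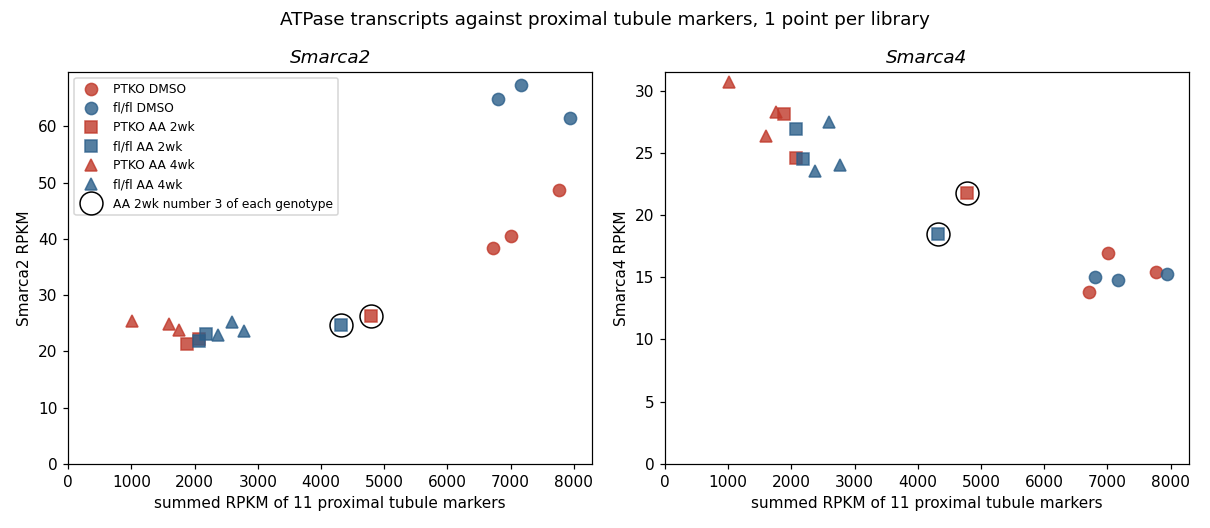
Smarca2 (left) and Smarca4 (right) RPKM on the y axis against the summed RPKM of 11 proximal tubule markers on the x axis, 1 point per library, coloured by genotype and shaped by treatment. The circled AA 2wk libraries numbered 3 lie at 4785 RPKM (PTKO) and 4321 RPKM (fl/fl) of marker sum, with Smarca2 at 26.3 and 24.6 RPKM.

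Markers of immune cells were higher after AAI. The sum of 10 macrophage markers was 945 to 2639 RPKM in PTKO AA 2wk and 460 to 2940 RPKM in fl/fl AA 2wk libraries, and 3518 to 4904 RPKM in PTKO AA 4wk and 2170 to 3291 RPKM in fl/fl AA 4wk libraries, against 87.5 to 133.9 RPKM in PTKO DMSO and 71.4 to 114.3 RPKM in fl/fl DMSO libraries. All 10 rose in each of the 4 comparisons with DMSO, and so did the 6 T cell markers. No macrophage marker was at 0 in all libraries of a group. All 5 proliferation markers and all 5 tubule injury markers rose in each of these comparisons as well. Of all tested genes, 45.9% rose in PTKO and 50.4% in fl/fl at AA 2wk, and 55% and 51.9% did so at AA 4wk. Of 8 fibroblast markers, 1 rose at AA 2wk in PTKO, and 5 rose without PTKO AA 2wk library 3. The sum of these markers was 55.9 RPKM in that library, below the 73.6 to 100.9 RPKM of PTKO DMSO, and 518.3 and 281.8 RPKM in PTKO AA 2wk libraries 1 and 2. In fl/fl 6 rose at AA 2wk, and 3 without fl/fl AA 2wk library 1 or 2 or fl/fl DMSO library 3. At AA 4wk 7 rose in each genotype, and in fl/fl 4 rose without fl/fl AA 4wk library 2 or fl/fl DMSO library 3. All 5 podocyte markers rose at AA 2wk in PTKO, where their sum was 361.2 RPKM in library 3 and 158.8 and 160.8 RPKM in libraries 1 and 2, against 98.3 to 131.6 RPKM under DMSO. In fl/fl 1 of the 5 rose, and 3 rose without PTKO AA 2wk library 3, which enters the shared estimate of spread. When libraries were scaled by the median of ratios, 2 podocyte markers rose at AA 2wk in PTKO and 0 in fl/fl. Under that scaling 1 fibroblast marker rose in PTKO and 4 in fl/fl at AA 2wk, and 5 and 4 at AA 4wk. All 10 macrophage markers still rose in each comparison with DMSO. The same scaling called 3685 of the 13624 tested genes higher in PTKO and 3864 in fl/fl at AA 2wk, and 4624 and 4185 at AA 4wk. The genotype difference of the AA 2wk change was called for none of the 8 fibroblast and none of the 5 podocyte markers. The part of these cell type shifts in the subunit levels was not tested.

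Smarca4, the other SWI/SNF ATPase, rose after AAI in both genotypes. At AA 2wk it had 24.6, 28.1 and 21.8 RPKM in PTKO, against 16.9, 15.4 and 13.8 RPKM in PTKO DMSO libraries. In fl/fl it had 24.5, 26.9 and 18.5 RPKM at AA 2wk, against 15.3, 15.0 and 14.8 RPKM under DMSO. The groups did not overlap in either genotype, and the log2 difference was 0.65 ± 0.13 in PTKO (limma adjusted p = 0.000498) and 0.58 ± 0.13 in fl/fl (limma adjusted p = 0.00103). At AA 4wk Smarca4 had 28.3, 30.7 and 26.3 RPKM in PTKO, which was 0.85 above PTKO DMSO (limma adjusted p = 2.97e-05). In fl/fl it had 23.5, 27.4 and 24.0 RPKM, which was 0.70 above fl/fl DMSO (limma adjusted p = 0.000213). At AA 2wk in fl/fl the call ended when libraries were scaled by the median of ratios, at 0.21 (limma adjusted p = 0.115).

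Within a library, Smarca2 was the more abundant ATPase transcript under DMSO, and after AAI both stood at about the same level per length. The ratio of Smarca2 to Smarca4 was 2.39, 3.15 and 2.78 in PTKO DMSO libraries, against 4.02, 4.32 and 4.57 in fl/fl DMSO libraries. It was 0.900, 0.760 and 1.21 in PTKO AA 2wk, against 0.945, 0.810 and 1.33 in fl/fl AA 2wk libraries, and the highest value of each genotype came from library 3. At AA 4wk it was 0.841, 0.831 and 0.946 in PTKO, against 0.972, 0.920 and 0.984 in fl/fl. After AAI the ratios of the genotypes overlapped, with an exact two-sided permutation p of 0.7 at AA 2wk and 0.2 at AA 4wk, where 3 libraries against 3 cannot go below 0.1. Over the 31 such tests of ratios, the lowest Benjamini-Hochberg adjusted p was 0.258, so none passed. These tests took the libraries as unpaired. Within each same-numbered pair after AAI the PTKO ratio lay below the fl/fl ratio. Numbers were taken to pair the genotypes at AA 2wk but not at AA 4wk, and no paired test of ratios was run.

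The summed level of both ATPases lay below DMSO in every AAI library of fl/fl and at AA 2wk in PTKO, while PTKO AA 4wk and PTKO DMSO overlapped. Smarca2 plus Smarca4 came to 57.9 ± 5.93 RPKM in PTKO DMSO and 79.6 ± 2.70 RPKM in fl/fl DMSO, and to 48.1 ± 1.42 RPKM in PTKO AA 2wk and 46.5 ± 2.95 RPKM in fl/fl AA 2wk (SD, n = 3 each). At AA 4wk the sum was 53.1 ± 2.62 RPKM in PTKO and 48.9 ± 3.34 RPKM in fl/fl. Smarca2 made up 73.3% of the sum in PTKO DMSO and 81.1% in fl/fl DMSO, 48.4% in PTKO AA 2wk and 50.2% in fl/fl AA 2wk, and 46.6% in PTKO AA 4wk and 48.9% in fl/fl AA 4wk, as means of 3 libraries. These sums and shares hold the DMSO values that chose Smarca2 and are a description.

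**Figure D3:**
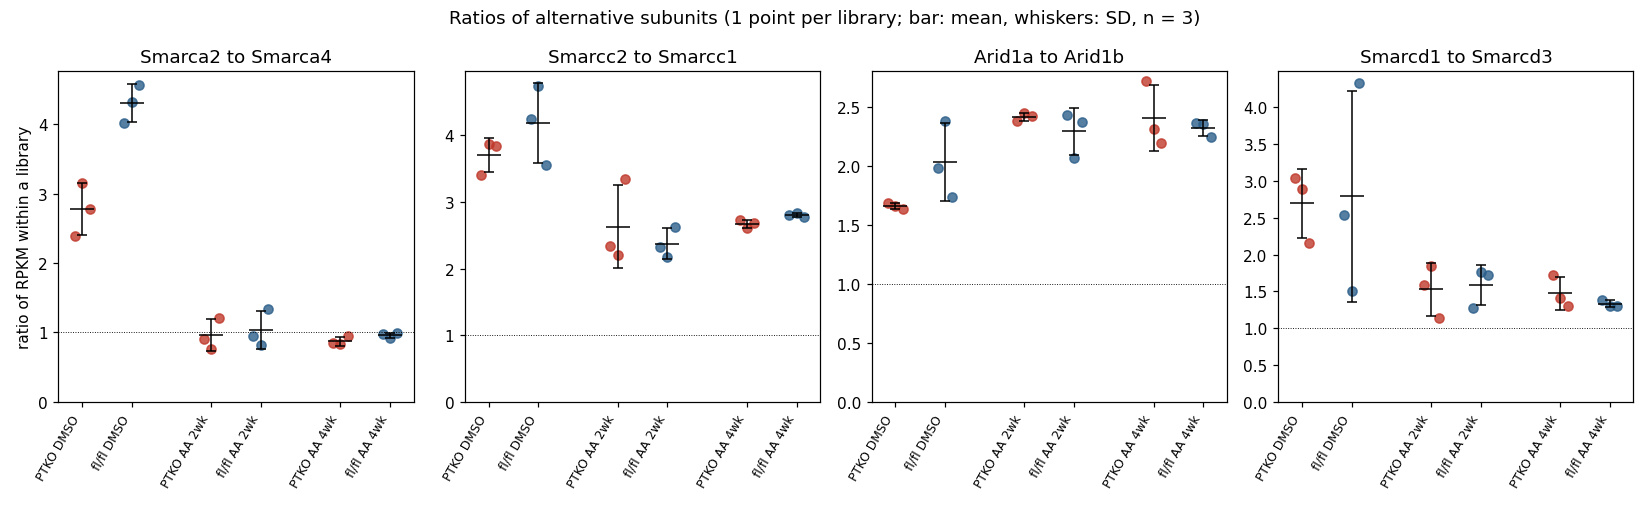
Ratios of RPKM between alternative subunits within each library (y axis, linear, from 0), by group. Points are libraries, bars are means and whiskers are SD of 3 libraries. The dotted line marks equal levels, and the ratio of Smarca2 to Smarca4 is 0.760 to 1.33 after AAI and 2.39 to 4.57 under DMSO.

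Among the 9 subunits other than Smarca2, calls after AAI were all in the higher direction on the deposited scale, as were most called genes. At AA 2wk, 6 of the 9 rose in PTKO, where 45.9% of all tested genes were called higher, and 5 of the 9 rose in fl/fl, where 50.4% were. At AA 4wk all 9 rose in PTKO, against 55% of all tested genes, and all 9 rose in fl/fl, against 51.9%. The median log2 difference of the 9 was 0.64 in PTKO and 0.48 in fl/fl at AA 2wk, and 0.85 in PTKO and 0.67 in fl/fl at AA 4wk. Over all tested genes that median was 0.29 in PTKO and 0.33 in fl/fl at AA 2wk, and 0.40 in PTKO and 0.35 in fl/fl at AA 4wk.

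Median-of-ratios scaling removes that common shift, and then the AA 4wk calls numbered 5 in each genotype, namely Smarca4, Smarcb1, Smarcc1, Smarcd3 and Arid1a. At AA 2wk it left Smarca4, Smarcb1, Smarcc1 and Arid1a higher and Smarcd1 lower in PTKO, and Smarcb1 and Smarcc1 higher and Smarcc2 and Smarcd1 lower in fl/fl. Under this scaling the split of all calls at AA 2wk in PTKO was 3685 higher and 3698 lower, against 6251 higher and 1947 lower without it. For fl/fl at AA 2wk it was 3864 higher and 3741 lower, against 6864 and 1660. At AA 4wk the scaled split was 4624 higher and 4498 lower in PTKO, against 7488 and 2351, and 4185 higher and 4076 lower in fl/fl, against 7074 and 1954. Smarca2 lay below DMSO under this scaling too, by -1.17 in PTKO and -1.82 in fl/fl at AA 2wk.

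**Figure D4:**
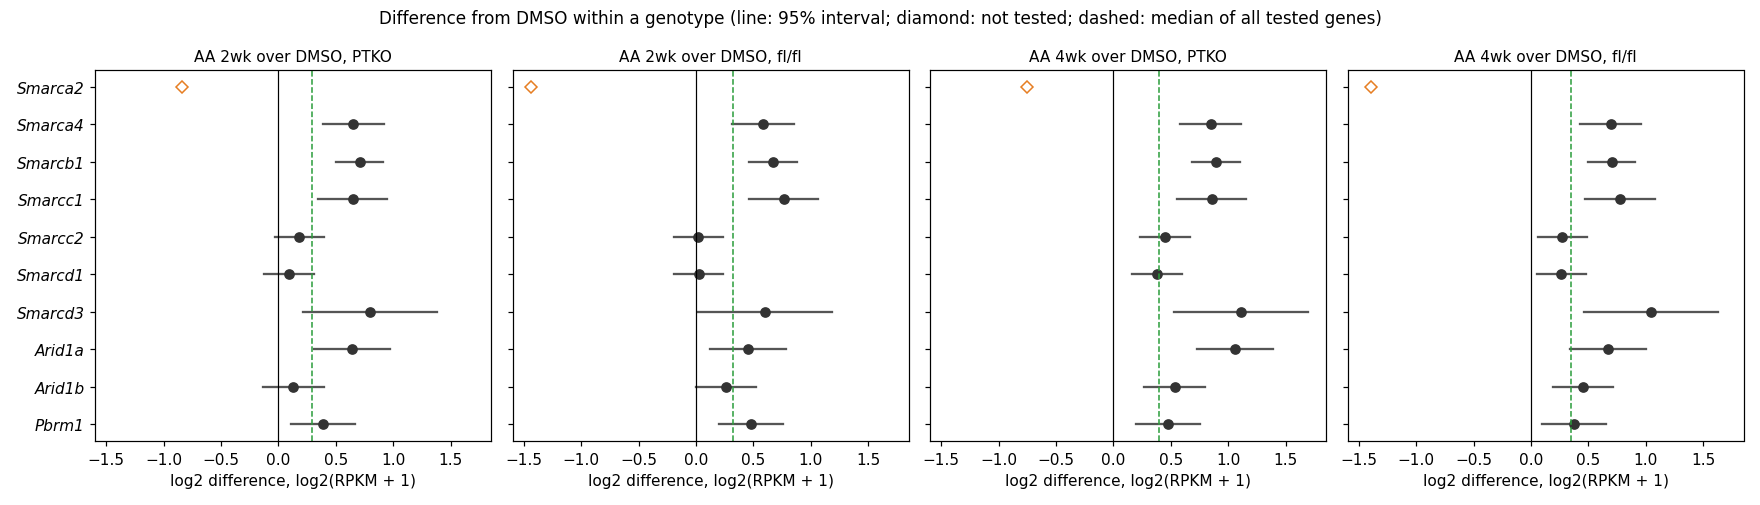
Difference from DMSO on the log2(RPKM + 1) scale (x axis) for each subunit (rows), at AA 2wk and AA 4wk in PTKO and fl/fl. Points are limma estimates with 95% intervals, diamonds are values of Smarca2 with no test, and dashed lines are the medians of all tested genes, 0.29 to 0.40. Smarca2 is the only one of the 10 below 0, while under median-of-ratios scaling Smarcd1 also lay below 0 in all 4 comparisons, Smarcc2 in all but PTKO at AA 4wk, Arid1b in both at AA 2wk and Pbrm1 in fl/fl at AA 4wk.

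Smarcb1, the core subunit that binds the nucleosome face, and Smarcc1, a scaffold on which the complex is built, rose in all 4 comparisons and under every alternative setting tried. In PTKO AA 2wk libraries Smarcb1 had 35.8, 39.3 and 30.2 RPKM, against 19.9, 22.5 and 20.6 RPKM under DMSO. In fl/fl AA 2wk libraries it had 38.5, 36.3 and 31.5 RPKM, against 22.1, 22.4 and 21.0 RPKM under DMSO. All AAI values lay above all DMSO values, by 0.71 ± 0.10 in PTKO (limma adjusted p = 3.66e-05) and 0.67 ± 0.10 in fl/fl (limma adjusted p = 5.17e-05). At AA 4wk Smarcb1 was 0.89 above DMSO in PTKO and 0.70 above it in fl/fl.

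Smarcc1 had 15.7, 17.3 and 10.6 RPKM in PTKO AA 2wk libraries, against 9.68, 8.27 and 8.32 RPKM under DMSO, and 15.97, 16.6 and 12.4 RPKM in fl/fl AA 2wk libraries, against 8.35, 8.59 and 8.08 RPKM under DMSO. The lowest AAI value of each genotype came from library 3 and still lay above DMSO. The log2 difference was 0.65 ± 0.14 in PTKO and 0.76 ± 0.14 in fl/fl at AA 2wk, and 0.86 in PTKO and 0.78 in fl/fl at AA 4wk (limma adjusted p from 7.9e-05 to 0.00131).

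Smarcc2, the paralogue of Smarcc1 in the same scaffold, was the second most abundant of the 10 per length under DMSO and moved less. It had 36.8, 38.0 and 35.5 RPKM in PTKO AA 2wk, against 33.0, 32.0 and 31.9 RPKM under DMSO, a difference of 0.18 that did not pass (limma adjusted p = 0.128). In fl/fl it had 37.1, 35.9 and 32.5 RPKM at AA 2wk, against 35.5, 40.8 and 28.7 RPKM under DMSO, and the groups overlapped (0.02, limma adjusted p = 0.876). It was called at AA 4wk, 0.45 higher in PTKO (limma adjusted p = 0.000966) and 0.27 higher in fl/fl (limma adjusted p = 0.0252). The fl/fl call ended without fl/fl DMSO library 3 (adjusted p = 0.163), without fl/fl AA 4wk library 1 (0.0541) or library 2 (0.099), and in a limma fit of these groups alone (0.0923). Under median-of-ratios scaling Smarcc2 lay at 0.01 in PTKO and -0.13 in fl/fl at AA 4wk, and at AA 2wk it was called lower in fl/fl (-0.37, adjusted p = 0.00146).

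The ratio of Smarcc2 to Smarcc1 was lower after AAI in both genotypes, with no overlap. It was 2.34, 2.20 and 3.34 in PTKO AA 2wk, against 3.40, 3.87 and 3.83 in PTKO DMSO libraries. In fl/fl it was 2.32, 2.17 and 2.62 at AA 2wk, against 4.24, 4.74 and 3.55 under DMSO. The exact permutation p was 0.1 in each, the lowest that 3 against 3 allows, and 0.258 after adjustment over the 31 ratio tests. A ratio within a library does not depend on how libraries are scaled.

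Smarcd1 and Smarcd3 encode alternative BAF60 subunits, which link the complex to transcription factors. Smarcd1 did not pass at AA 2wk in either genotype, at 0.09 in PTKO (limma adjusted p = 0.458) and 0.02 in fl/fl (limma adjusted p = 0.858). In AA 4wk libraries it had 15.9, 15.4 and 17.1 RPKM in PTKO, against 11.2, 13.8 and 11.7 RPKM under DMSO, with no overlap (0.38, limma adjusted p = 0.00387). The fl/fl libraries had 16.1, 15.5 and 14.1 RPKM at AA 4wk, against 12.3, 14.2 and 11.1 RPKM under DMSO, and the call of 0.27 (limma adjusted p = 0.0315) rests on single libraries. It ended without fl/fl DMSO library 1 (adjusted p = 0.0785) or library 3 (0.145), without fl/fl AA 4wk library 1 (0.105) or library 2 (0.0787), and in the fit of these groups alone (0.0577). Under median-of-ratios scaling Smarcd1 lay at -0.04 in PTKO and -0.12 in fl/fl at AA 4wk, and at AA 2wk it was called lower in PTKO (-0.23, adjusted p = 0.0273) and in fl/fl (-0.34, 0.00232).

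Smarcd3, known from heart and muscle, was the least abundant of the 10 under DMSO. In PTKO it had 9.24, 11.01 and 13.2 RPKM at AA 4wk, against 3.702, 4.76 and 5.39 RPKM under DMSO. For fl/fl these were 11.6, 11.9 and 10.8 RPKM at AA 4wk, against 4.82, 9.45 and 2.56 RPKM under DMSO, where the spread relative to the mean was the widest of any subunit. All AA 4wk values lay above every DMSO library of the same genotype. The log2 difference was 1.11 ± 0.27 in PTKO (limma adjusted p = 0.00209) and 1.05 ± 0.27 in fl/fl (limma adjusted p = 0.00367). At AA 2wk it rose in PTKO (0.80, limma adjusted p = 0.0207), where the call ended without PTKO DMSO library 1 (0.0797), without PTKO AA 2wk library 3 (0.0597), without both AA 2wk libraries numbered 3 (0.0649) and under median-of-ratios scaling (0.11). In fl/fl the 0.60 at AA 2wk did not pass (limma adjusted p = 0.0691), and it passed without fl/fl DMSO library 2, the one at 9.45 RPKM (0.998, adjusted p = 0.00101).

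Arid1a, a DNA-binding subunit that marks BAF complexes, rose in all 4 comparisons. At AA 4wk it had 27.2, 28.2 and 22.2 RPKM in PTKO, against 12.6, 11.6 and 11.2 RPKM under DMSO, and the difference of 1.06 ± 0.16 (limma adjusted p = 2.69e-05) was close to that of Smarcd3. The fl/fl libraries had 21.3, 24.0 and 19.2 RPKM at AA 4wk, against 12.6, 16.3 and 10.8 RPKM under DMSO (0.67 ± 0.16, limma adjusted p = 0.0015). At AA 2wk it rose by 0.64 in PTKO (limma adjusted p = 0.00263). The fl/fl rise of 0.45 at AA 2wk (limma adjusted p = 0.0198) had overlapping groups, and the call ended without fl/fl DMSO library 1 (0.0578) or library 3 (0.102), without fl/fl AA 2wk library 1 (0.0973), in the fit of these groups alone (0.0631) and under median-of-ratios scaling (0.579).

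Arid1b, which replaces Arid1a in other BAF complexes, was called at AA 4wk alone. It had 9.99, 12.2 and 10.1 RPKM in PTKO AA 4wk, against 7.46, 7.003 and 6.87 RPKM under DMSO (0.53, limma adjusted p = 0.00129), and 9.01, 10.2 and 8.56 RPKM in fl/fl AA 4wk, against 6.35, 6.83 and 6.25 RPKM under DMSO (0.45, limma adjusted p = 0.00483). At AA 2wk the values of 0.13 in PTKO (limma adjusted p = 0.375) and 0.26 in fl/fl (limma adjusted p = 0.0745) did not pass. Without both AA 2wk libraries numbered 3 they were 0.26 in PTKO (adjusted p = 0.0241) and 0.37 in fl/fl (0.00345). The fl/fl value also passed without fl/fl AA 2wk library 3 alone (0.0198), without PTKO AA 2wk library 3 alone (0.0325) and with the replicate number as a block (0.0269). Under median-of-ratios scaling no Arid1b call held, with adjusted p of 0.22 in PTKO and 0.43 in fl/fl at AA 4wk and values of -0.17 in PTKO and -0.08 in fl/fl at AA 2wk.

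The ratio of Arid1a to Arid1b was 2.38, 2.45 and 2.42 in PTKO AA 2wk, against 1.69, 1.66 and 1.64 in PTKO DMSO libraries. In PTKO AA 4wk libraries it averaged 2.41 ± 0.278 (SD, n = 3). These did not overlap with DMSO, while in fl/fl the ratio was 2.43, 2.07 and 2.37 at AA 2wk, against 1.98, 2.38 and 1.73 under DMSO, and overlapped. The exact permutation p was 0.1 in PTKO and 0.3 in fl/fl, and the genotype difference of the change in this ratio was not tested. Mean ratios after AAI were close in both genotypes, 2.415 in PTKO and 2.291 in fl/fl at AA 2wk, and 2.406 and 2.319 at AA 4wk. Under DMSO all PTKO ratios lay below all fl/fl ratios, with means of 1.66 and 2.033. The exact permutation p of that difference was 0.1, and 0.258 after adjustment over the 31 ratio tests.

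Pbrm1, the bromodomain subunit that marks PBAF, rose in all 4 comparisons by 0.37 to 0.48. In PTKO AA 2wk it had 14.7, 14.9 and 9.89 RPKM, against 10.1, 9.30 and 9.57 RPKM under DMSO, and library 3 lay within the DMSO range. That call (0.39, limma adjusted p = 0.018) ended without PTKO DMSO library 2 (0.0542), without PTKO AA 2wk library 1 (0.0874) or library 2 (0.0912) and in the fit of these groups alone (0.0823). In fl/fl AA 2wk it had 13.1, 14.0 and 12.2 RPKM, against 8.74, 9.23 and 9.40 RPKM under DMSO, with no overlap (0.48, limma adjusted p = 0.00552). The AA 4wk value was 0.48 higher in PTKO (limma adjusted p = 0.00418) and 0.37 higher in fl/fl (limma adjusted p = 0.0207), and the fl/fl call ended without fl/fl DMSO library 1 (0.0628) or without AA 4wk library 1 (0.0603) or library 2 (0.0672). Under median-of-ratios scaling no Pbrm1 call held, and fl/fl AA 4wk lay at -0.01.

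Between genotypes after AAI, none of the 10 subunits was called by limma or by voom on the recovered reads, and none reached an unadjusted p of 0.05, at AA 2wk or AA 4wk. Of all tested genes, 0.00734% were called at AA 2wk and the same 0.00734% in the later course, while 6.7% and 6.04% reached an unadjusted p of 0.05. At AA 2wk the 9 subunits other than Smarca2 ranged from -0.06 for Smarcc1 to 0.10 for Smarca4, PTKO over fl/fl. At AA 4wk they ranged from -0.05 for Smarcd3 to 0.25 for Arid1a, where Arid1a had 27.2, 28.2 and 22.2 RPKM in PTKO and 21.3, 24.0 and 19.2 RPKM in fl/fl. The 95% interval for Arid1a was -0.08 to 0.58. Klf15 had 12.5, 17.5 and 25.6 RPKM in PTKO AA 2wk, against 22.9, 18.6 and 41.3 RPKM in fl/fl AA 2wk libraries, lower in PTKO in all 3 of the same-numbered pairs though the groups overlapped (-0.52, limma adjusted p = 0.763, and 0.509 with the replicate number as a block). At AA 4wk it had 9.11, 8.81 and 9.53 RPKM in PTKO, against 11.6, 14.6 and 18.8 RPKM in fl/fl, where all PTKO values were lower (-0.63, limma adjusted p = 0.812, unadjusted p = 0.0267). Neither difference passed after adjustment over all tested genes.

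**Figure D5:**
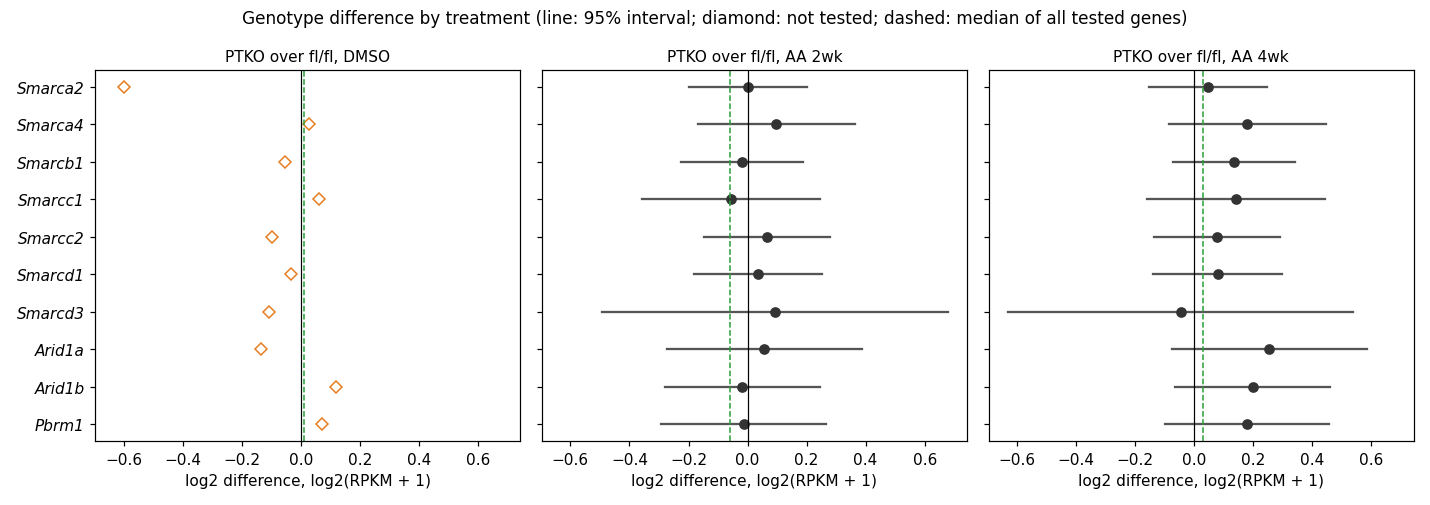
Genotype difference, PTKO over fl/fl, on the log2(RPKM + 1) scale (x axis) for each subunit (rows) under DMSO and after each AAI course. Points are limma estimates with 95% intervals, diamonds are DMSO values with no test, and dashed lines are medians of all tested genes. Smarca2 lies at -0.60 under DMSO, at 0.00 after AA 2wk and at 0.05 after AA 4wk.

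Under DMSO the genotype differences of the subunits other than Smarca2 ran from -0.14 for Arid1a to 0.12 for Arid1b, PTKO over fl/fl. Arid1b had 7.46, 7.003 and 6.87 RPKM in PTKO and 6.35, 6.83 and 6.25 RPKM in fl/fl DMSO libraries. These values did not overlap, but separation of so few libraries can arise without a genotype effect, and it carries no test. The genotype difference of the AAI change itself was called by limma and by voom for none of the 9 in either course, with none at an unadjusted p of 0.05, where 0.0147% of tested genes were called at AA 2wk and 0.00734% in the later course. The unadjusted level was reached by 5.36% of tested genes at AA 2wk and 4.66% at AA 4wk. For Smarca2 it was 0.60 at AA 2wk and 0.65 at AA 4wk, values that contain the DMSO difference and carry no test.

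From AA 2wk to AA 4wk none of the 10 subunits was called in either genotype by limma or by voom. In PTKO 4.16% of tested genes were called and in fl/fl 0.125%. At an unadjusted p of 0.05 there were 4 subunits in PTKO (Smarcc2, Smarcd1, Arid1a and Arid1b) and 2 in fl/fl (Smarcc2 and Smarcd1), all higher at AA 4wk. Of all tested genes, 26.9% reached that level in PTKO and 12.3% in fl/fl. In PTKO, Arid1b had 9.99, 12.2 and 10.1 RPKM at AA 4wk, against 8.59, 8.89 and 6.35 RPKM at AA 2wk (0.40, limma adjusted p = 0.0709). Its adjusted p was 0.0377 without fl/fl AA 2wk library 3. Replicate numbers were taken to pair these PTKO libraries, though the lowest of their correlations, 0.101, barely passed the cutoff of 0.1. With the number as a block 3 subunits were called, Arid1b (0.0238), Arid1a (0.0274) and Smarcc2 (0.0483), in a fit that called 11.5% of all tested genes. That block is shared by all 6 groups, also by PTKO DMSO and PTKO AA 2wk, whose same-numbered libraries correlated at -0.042, -0.13 and -0.161. These calls therefore do not rest on an established pairing. The genotype difference in this step was called for none of the 10, with none at an unadjusted p of 0.05, a level that 3.24% of tested genes reached, and 0% of tested genes called.

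A further 20 SWI/SNF subunits were in the table, and 17 were expressed enough to be tested, all but Actl6b, Bcl11a and Dpf1. At AA 2wk 9 rose and 1 fell in PTKO, where 45.9% of all tested genes rose and 14.3% fell, and 10 rose and 1 fell in fl/fl, where 50.4% rose and 12.2% fell. At AA 4wk 12 rose and 2 fell in PTKO, where 55% rose and 17.3% fell, and 11 rose and 2 fell in fl/fl, where 51.9% rose and 14.3% fell. The one lower in all 4 comparisons was Bcl7a, a small accessory subunit, at -0.36 in PTKO and -0.33 in fl/fl at AA 2wk. The other, at AA 4wk, was Dpf3, a histone-reading subunit, at -0.34 in PTKO (adjusted p = 0.0152) and -0.30 in fl/fl (0.0317). Bcl7a and Dpf3 were singled out after their values were seen.

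Among those that rose, Ss18, a subunit fused to SSX in human synovial sarcoma, averaged 22.7 RPKM at AA 2wk in PTKO, against 13.6 RPKM under DMSO (0.68, limma adjusted p = 0.000708). Smarcd2, the remaining BAF60 paralogue, averaged 29.2 RPKM at AA 4wk in PTKO, against 13.9 RPKM under DMSO (1.02, limma adjusted p = 3.3e-05). The median of the 17 was 0.30 in PTKO and 0.39 in fl/fl at AA 2wk, near the 0.29 and 0.33 of all tested genes. Median-of-ratios scaling called 3685 of the 13624 tested genes higher and 3698 lower at AA 2wk in PTKO, and 3864 and 3741 in fl/fl. At AA 4wk it called 4624 higher and 4498 lower in PTKO, and 4185 and 4076 in fl/fl. Of the 17 subunits, 4 rose and 3 fell under it at AA 2wk in PTKO, and 1 rose and 3 fell in fl/fl. For AA 4wk 6 of them rose and 4 fell in PTKO, and 1 rose and 4 fell in fl/fl. Without PTKO AA 4wk library 3 or PTKO DMSO library 3, and without fl/fl AA 4wk library 1 or 3 or fl/fl DMSO library 2 or 3, only 1 of the AA 4wk falls of that genotype was called. Without PTKO AA 2wk library 3, 12 rose and 2 fell at AA 2wk in PTKO.

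Of 20 ATPases of other remodeling families in the table, 18 were tested, all but Chd5 and Smarca1. At AA 2wk 12 rose and 1 fell in PTKO, where 45.9% of all tested genes rose and 14.3% fell. In fl/fl 10 rose and 1 fell at AA 2wk, where 50.4% rose and 12.2% fell. At AA 4wk 16 rose and 1 fell in PTKO, where 55% rose and 17.3% fell. In fl/fl 9 rose and 1 fell at AA 4wk, where 51.9% rose and 14.3% fell. The fl/fl rises at AA 4wk numbered 5 without fl/fl AA 4wk library 2 and 14 without fl/fl DMSO library 2. The one that fell each time was Chd3, an ATPase of the NuRD complex. It averaged 50.9 ± 5.72 RPKM in PTKO AA 2wk, against 91.3 ± 2.99 RPKM in PTKO DMSO (-0.84 ± 0.09, limma adjusted p = 4.14e-06), and it averaged 45.7 ± 1.57 RPKM in fl/fl AA 2wk, against 96.6 ± 6.63 RPKM in fl/fl DMSO (-1.06 ± 0.09, limma adjusted p = 6.46e-07).

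Chd4, the alternative NuRD ATPase, rose in all 4 comparisons. In PTKO it had 51.3 ± 1.91 RPKM at AA 2wk, against 31.1 ± 1.11 RPKM under DMSO (0.70, limma adjusted p = 0.000111). In fl/fl it was called higher at AA 2wk (0.41, limma adjusted p = 0.00522) and at AA 4wk (0.60, limma adjusted p = 0.000257), and neither fl/fl call held under median-of-ratios scaling (0.02, adjusted p = 0.857, and 0.20, adjusted p = 0.0822). Of the ATPases, 6 rose and 2 fell under that scaling at AA 2wk in PTKO, and 2 rose and 2 fell in fl/fl. For AA 4wk 10 rose and 2 fell in PTKO, and 2 rose and 2 fell in fl/fl. The same scaling called 3685 of the 13624 tested genes higher and 3698 lower at AA 2wk in PTKO, and 3864 and 3741 in fl/fl. Its AA 4wk calls were 4624 higher and 4498 lower in PTKO, and 4185 and 4076 in fl/fl. Between genotypes after AAI, limma and voom called none in either list, with 1 ATPase at AA 4wk at an unadjusted p of 0.05 and no other gene of the lists. Between the courses they also called none, with 5 subunits and 2 ATPases in PTKO and 2 subunits and 0 ATPases in fl/fl at an unadjusted p of 0.05, where 26.9% of all tested genes in PTKO and 12.3% in fl/fl did so.

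Genes with the pattern most like Smarca2 were ranked by Pearson r of log2(RPKM + 1) over the 18 libraries, which share the DMSO to AAI step. The highest were Mapk14 (r = 0.968), the p38-alpha kinase, Hrg (0.968), a plasma glycoprotein, Paqr7 (0.954), a membrane progestin receptor, Klc4 (0.95), a kinesin light chain, and Hsd17b11 (0.949), a steroid dehydrogenase. The other 9 subunits ran from -0.44 for Smarcd1 to -0.90 for Smarcc1, with Smarca4 at -0.86. Around the group means, where the group differences are taken out, these 9 ran from 0.06 for Smarcd3 to -0.60 for Smarcc1. Smarcd1 was at -0.06 and Smarca4 at -0.32. The highest genes on that measure were Porcn (0.846), Lama3 (0.835), Sun3 (0.829), 4930452B06Rik (0.805) and Coq5 (0.799). These are descriptions over 18 libraries that differ in depth and cell makeup.

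An antisense gene, 4931403E22Rik, overlaps the 3′ end of Smarca2. The library kit keeps strand, but no source used here says whether counting used it. The antisense gene was listed at 0 to 1.29 RPKM in the 18 libraries, against at least 21.4 RPKM for Smarca2.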

How the data were processed

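Kidney cortex RNA was sequenced with a stranded total RNA kit, per the labels' protocols. Build mm10, kallisto (no version) and bcl2fastq 2.19 are named in the submitters' processing notes, and no source used here states how reads were counted per gene. The deposited values are RPKM per the file headers. Groups follow the labels. From their steps, whole reads were recovered for 100.0% of the 17579 genes with values in 6 or more libraries, within 0.02 reads, giving 10980566 to 21922482 reads per library.

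The 13624 genes reaching 1 RPKM in 3 or more libraries were fitted on log2(RPKM + 1), which understates changes of low genes, with limma 3.58.1 (R 4.3.3, statmod 1.5.0): 6 group means, trend and robust moderation, two-sided, Benjamini-Hochberg over all tested genes, called at 0.05. Fold changes are on the log2(RPKM + 1) scale. The fit and the read recovery were tested on simulated data. Exact permutation tests of ratios used scipy 1.17.1.

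The members and lists were chosen with earlier results of these data known. Named genes were all members, Klf15 and the 5 genes most like Smarca2. From each of the lists of other subunits and ATPases, the 3 called with the lowest adjusted p per comparison could be named. Outside this rule, Bcl7a and Dpf3 were named after their values were seen. Also named were list genes too low to test, genes at the edge of the DMSO call and the antisense gene 4931403E22Rik.

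Replicate numbers were taken to pair libraries where every same-numbered pair of deviations from group means correlated above 0.1. This held for the genotypes at AA 2wk (0.436, 0.431 and 0.663) and for AA 4wk against AA 2wk in PTKO (0.101, 0.243 and 0.239). Alternatives were a pseudocount of 0.1, no filter, median-of-ratios scaling, quality weights, the compared groups alone, a replicate block, voom on recovered reads, and leaving out single libraries or both AA 2wk libraries numbered 3.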

Additional observations from a re-analysis of the deposited data

How the results depend on the processing

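Over 26 alternative settings, 2962 of 3120 values of the subunits kept their direction and their side of the threshold, or moved within the replicate spread where they carry no test. Of these settings 18 left out a single library. Where that library lay outside the compared groups the estimate could not change, so this agreement is partly built in. Median-of-ratios scaling lowered the AA 4wk calls to 5 of 9 in PTKO and 5 of 9 in fl/fl, and turned Smarcd1 to -0.23 (PTKO, AA 2wk), -0.34 (fl/fl, AA 2wk), -0.043 (PTKO, AA 4wk) and -0.12 (fl/fl, AA 4wk), Smarcc2 to -0.37 (fl/fl, AA 2wk) and -0.13 (fl/fl, AA 4wk), and Pbrm1 to -0.006 (fl/fl, AA 4wk). By construction it sets the median gene near 0. Under it 4624 of the 13624 tested genes were called higher at AA 4wk in PTKO and 4185 in fl/fl. For AA 4wk over AA 2wk, where 0 were called, quality weights gave 2 in PTKO (Smarcc2 and Arid1b) and 2 in fl/fl (Smarcc2 and Smarcd1), and leaving out single libraries gave 0 to 1 in PTKO. The cause was not tested.

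With the replicate number as a block, AA 4wk over AA 2wk in PTKO had 3 calls in place of 0, and Arid1b in fl/fl at AA 2wk passed (0.0269). No other call of a subunit changed under the block, which is shared by all groups, whether or not their numbers were taken to pair. Where numbers were not taken to pair, own-number correlation was the highest for 6 of 6 libraries between genotypes at AA 4wk. It was the highest for 0 to 4 of 6 in the other comparisons not taken as paired. Smarcd3, with 70 to 362 reads, has the least depth.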
